A study of Mus musculus with 4 samples.

Results

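The miRNAs described here are 10 mature products of a single cluster on the mouse X chromosome: both arms of miR-322, miR-503, miR-351 and miR-542, and the 5p arms of miR-450a and miR-450b. They were taken by exact name from the 869 miRNAs that had a value in at least 1 of the 4 samples, and all 10 had a value in every sample. C2C12, a mouse skeletal myoblast line whose cells leave the cell cycle and fuse into myotubes in low-serum medium, was differentiated without (NC, 2 samples) or with 20 mM guanidineacetic acid (GAA, 2 samples), a precursor of creatine also written guanidinoacetic acid, and small RNA was sequenced on day 6. All 4 samples come from this one line, given the strain background 129/Rej in the labels, and all were kept in differentiation medium with 2% horse serum. The labels do not say whether the replicates were separate cultures, so the spread between them may be technical.

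The deposited value is log2(RPM + 1), where RPM is the reads of a miRNA per 1000000 mappable reads. Between 1653803 and 3134241 miRNA reads lay behind each sample, and 1 read was worth 0.177 to 0.211 RPM. Reads assigned to miRNAs formed 33.6% and 43.6% of mappable reads for NC and 56.3% and 50.4% for GAA, replicate 1 first, as in every pair of values below. Each comparison is therefore given both in RPM and as a share of the miRNA reads. The myotube label was checked against miRNAs that mark muscle. miR-133a-3p ranged from 2251 to 3787 RPM, miR-133b-3p from 1829 to 2691 RPM and miR-206-3p from 355 to 553 RPM. The muscle miRNA miR-1a-3p was much lower, at 34.3 and 46.1 RPM in NC and 27.1 and 19.3 RPM in GAA. The neuronal miR-124-3p had 1 or 2 reads in each sample and the myeloid miR-223-3p had 1 read in all, and the liver miRNA miR-122-5p had 0 reads in both NC samples, 17 in GAA-1 and 2 in GAA-2. The 6 miRNAs listed for other cell types, mostly miR-142a-5p of blood cells, summed to 9.54 and 9.30 RPM in NC and to 23.7 and 15.7 RPM in GAA. On the RPM scale 5 of the 6 had a higher mean log2 value in GAA and 1, miR-451a, a lower one. The level of miR-451a was 2.03 and 0.845 RPM without GAA, but only 0.719 and 0.177 RPM with it, on 10 reads or fewer per sample. The part of these 6 miRNAs in the results was not tested.

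A miRNA guides the silencing complex to messages that match its seed, bases 2 to 8 from the 5′ end, so miRNAs with the same seed can share targets. Each hairpin precursor gives a duplex, from which one arm (the guide) is usually kept and the other (the passenger) is degraded. In muscle, miR-322 (the mouse counterpart of human miR-424) and miR-503 are known to rise as myoblasts differentiate and to favour exit from the cell cycle, in part through the phosphatase Cdc25a. miR-351 is a rodent relative of the miR-125 family and has been studied in muscle progenitor proliferation. The tumour-suppressive miR-542-3p is known to repress survivin.

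The 7 precursors lie on the minus strand within 6353 bases, at chrX:53047997-53054349 (GRCm38). In the direction of transcription the order is Mir322 (chrX:53054255-53054349), Mir503 (chrX:53053984-53054054), Mir351 (chrX:53053255-53053353), Mir542 (chrX:53049403-53049487), Mir450-2 (chrX:53048299-53048367), Mir450-1 (chrX:53048154-53048244) and Mir450b (chrX:53047997-53048078). Mir322 and Mir503 are 200 bases apart and Mir503 and Mir351 630 bases apart. A gap of 3767 bases follows before Mir542, and the 3 miR-450 precursors then lie 54 and 75 bases from each other. GENCODE M21 places no other gene over any of the 7. RefSeq places Mir322, Mir503 and Mir351 inside the span of the long noncoding RNA gene C430049B03Rik and the other 4 outside it. The nearest protein-coding genes considered, Hprt and Plac1, are 26337 and 15645 bases away.

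The mature sequences of the cluster, from RefSeq on GRCm38.p6, are given because the comparison of seeds below rests on them. They are written 5′ to 3′ with the seed in capitals.
miR-322-5p: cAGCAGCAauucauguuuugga
miR-322-3p: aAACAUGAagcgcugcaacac
miR-503-5p: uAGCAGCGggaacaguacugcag
miR-503-3p: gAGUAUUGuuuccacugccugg
miR-351-5p: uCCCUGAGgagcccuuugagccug
miR-351-3p: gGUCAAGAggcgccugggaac
miR-542-5p: cUCGGGGAucaucaugucacga
miR-542-3p: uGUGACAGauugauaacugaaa
miR-450a-5p: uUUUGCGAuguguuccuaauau
miR-450b-5p: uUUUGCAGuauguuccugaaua

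miRNAs encoded elsewhere that carry the seed of miR-322-5p or of miR-351-5p are shown for comparison, with the same marking.
miR-16-5p: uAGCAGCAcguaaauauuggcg
miR-15a-5p: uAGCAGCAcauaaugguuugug
miR-15b-5p: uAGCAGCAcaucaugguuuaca
miR-195a-5p: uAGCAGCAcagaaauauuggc
miR-497a-5p: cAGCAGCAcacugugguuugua
miR-125a-5p: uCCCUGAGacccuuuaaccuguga
miR-125b-5p: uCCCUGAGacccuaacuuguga

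The 10 members are 21 to 24 bases long. miR-322-5p has the complete seed of the miR-15 and miR-16 family, whereas miR-503-5p differs from it at 1 of the 7 seed bases, the last, after 6 identical ones. miR-351-5p has the complete seed of miR-125a-5p and miR-125b-5p, with its first 8 bases identical to both. miR-450a-5p and miR-450b-5p share their first 6 bases and 15 of 22 in all, but differ at 2 seed bases. miR-450a-5p is encoded identically in Mir450-1 and Mir450-2, so its reads cannot be assigned to either. It was the only member whose recovered read number was not whole, at 352.5 in NC-2.

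The cluster was led by miR-351-5p and miR-322-5p. miR-351-5p stood at 1139 and 1633 RPM in NC-1 and NC-2 and at 2182 and 1259 RPM in GAA-1 and GAA-2. GAA-1 was the highest and NC-1 the lowest, so the groups overlapped. miR-322-5p stood at 899 and 1050 RPM in NC and at 1272 and 803 RPM in GAA. Here the GAA samples lay on either side of both NC samples. Together these guides made up 82.2% to 85.7% of the summed RPM of the 10 members, and they ranked 42 and 52 among all miRNAs by mean RPM.

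miR-503-5p, which is usually considered with miR-322-5p because their precursors are neighbours and their seeds alike, was rare in these myotubes. It was counted 19 and 26 times in NC, or at 3.86 and 5.49 RPM, and 26 and 23 times under GAA, or at 4.67 and 4.07 RPM. Its level was 191 to 272 times lower than that of miR-322-5p in the same sample, although the precursors are 200 bases apart. The 2 miRNAs thus contributed very unequally to the cluster's reads in all 4 samples.

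The precursors downstream of Mir351 gave intermediate levels. miR-542-3p stood at 81.8 and 151 RPM in NC and 169 and 108.7 RPM in GAA, with the GAA samples on either side of NC-2. miR-450a-5p stood at 68.0 and 74.5 RPM in NC and 109.8 and 92.6 RPM in GAA. Its GAA samples were both above both NC samples, as for 63.4% of the 410 miRNAs with a mean of at least 1 RPM. miR-450b-5p stood at 45.9 and 76.5 RPM in NC and 101 and 74.9 RPM in GAA, with overlap between NC-2 and GAA-2. The passenger miR-322-3p, at 141 and 166 RPM in NC and 176 and 152 RPM in GAA, was more abundant than each of these guides in every sample. The rarest member was miR-351-3p, with 11 reads in each NC sample and 10 and 14 in GAA.

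**Figure D1:**
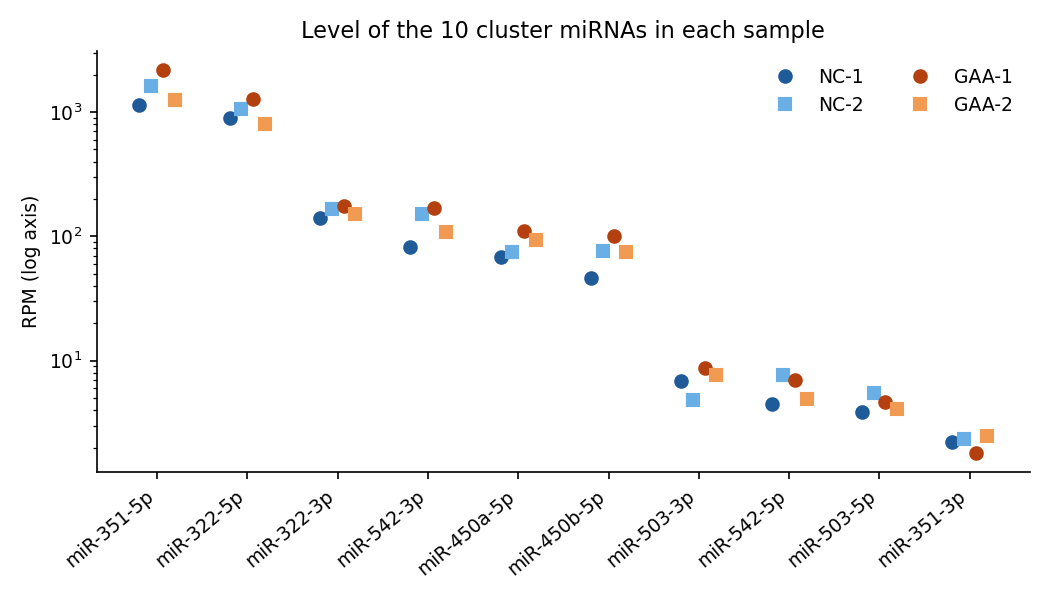
Level in RPM (log axis) of each cluster miRNA, ordered by mean, in the 2 NC samples (blue) and the 2 GAA samples (orange). miR-351-5p and miR-322-5p lie at 803 RPM or more in every sample, and miR-351-3p at 2.47 RPM or less.

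By mean RPM over the 4 samples the order was miR-351-5p (1553), miR-322-5p (1006), miR-322-3p (159), miR-542-3p (128), miR-450a-5p (86.2), miR-450b-5p (74.6), miR-503-3p (7.04), miR-542-5p (6.01), miR-503-5p (4.52) and miR-351-3p (2.21). The ranges of 6 of the 9 pairs of neighbours in this order overlapped. The separated steps were those from miR-322-5p down to miR-322-3p, from miR-450b-5p down to miR-503-3p and from miR-503-5p down to miR-351-3p. Within a sample the order was steadier than the ranges show, since miR-351-5p exceeded miR-322-5p, and miR-322-3p exceeded miR-542-3p, in 4 of 4 samples. miR-450a-5p exceeded miR-450b-5p in 3 of 4. These levels compare reads of RNAs of nearly equal length, but ligation favours some ends over others, so a ratio between miRNAs is a ratio of reads.

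The sample in which a member was highest was often the same. For each of the 6 members with a mean above 50 RPM, GAA-1 was the highest sample. Of all 10 members, 7 were highest in GAA-1 and 7 were lowest in NC-1. The profile as a whole had these same extremes. Its median-of-ratios factor, over the 497 miRNAs with a value in every sample, was highest in GAA-1 (1.31) and lowest in NC-1 (0.779). The spread of a group was wide for the leading guides, with NC at 1386 ± 350 RPM and GAA at 1720 ± 653 RPM for miR-351-5p, and 975 ± 107 and 1038 ± 331 RPM for miR-322-5p (mean ± SD, n = 2 each). For both, the difference between the group means was smaller than the SD of the GAA samples.

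**Figure D2:**
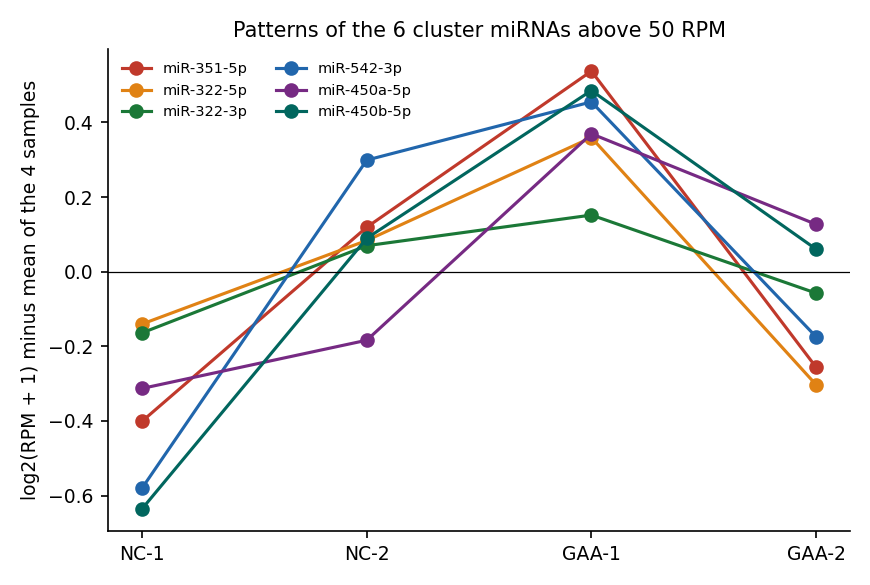
log2(RPM + 1) of the 6 cluster miRNAs above 50 RPM in each sample, minus the mean of that miRNA over the 4 samples. Lines only join the points of 1 miRNA: all 6 peak in GAA-1, and only miR-450a-5p has both NC samples below both GAA samples. GAA-1 also had the highest median-of-ratios factor over all miRNAs with a value in every sample, and NC-1 the lowest. In RPM, both GAA samples were above both NC samples for 63.4% of the 410 miRNAs with a mean of at least 1 RPM.

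The arms of the precursors were used very differently. For miR-351 the 5p arm had 510 and 702 times the RPM of the 3p arm in NC, and 1215 and 509 times in GAA, with only 10 to 14 reads behind the 3p arm. For miR-322 the ratio of 5p to 3p was 6.37 and 6.32 in NC and 7.23 and 5.28 in GAA, so that the NC samples were almost equal and lay between the GAA samples. miR-542 used the opposite arm, with miR-542-3p at 18.3 and 19.9 times miR-542-5p in NC and at 24.1 and 22.0 times in GAA. The miR-450b precursor again favoured its 5p arm, by 22.6 and 32.9 times in NC and 28.1 and 23.6 times in GAA.

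miR-503 was the exception. miR-503-3p was counted 34 and 23 times in NC and 49 and 43 times under GAA, more often than miR-503-5p in 3 of the 4 samples. The 5p arm stood at 0.559 times the 3p arm in NC-1, 1.13 times in NC-2, 0.531 times in GAA-1 and 0.535 times in GAA-2. NC-2 stood apart from the other samples, on 26 and 23 reads, and the NC samples differed by more than the group means. In this precursor neither arm was clearly dominant, and what is usually taken as the passenger was more frequent than miR-503-5p outside NC-2.

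The difference in arm ratio between GAA and NC was fitted with limma over the 75 miRNA names whose arms both averaged at least 5 RPM. Of the cluster only miR-322 and miR-542 met this level. The log2 ratio of 5p to 3p differed by -0.04 (standard error 0.29, adjusted p = 0.9999 with limma) for miR-322 and by -0.27 (standard error 0.46, adjusted p = 0.9999 with limma) for miR-542. At an FDR under 0.05, 0 of these 2 and 0.0% of the 75 pairs were called, with 7 pairs at an unadjusted p under 0.05. With at least 1 RPM required, all 4 precursors with both arms listed were tested and 0 were called.

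**Figure D3:**
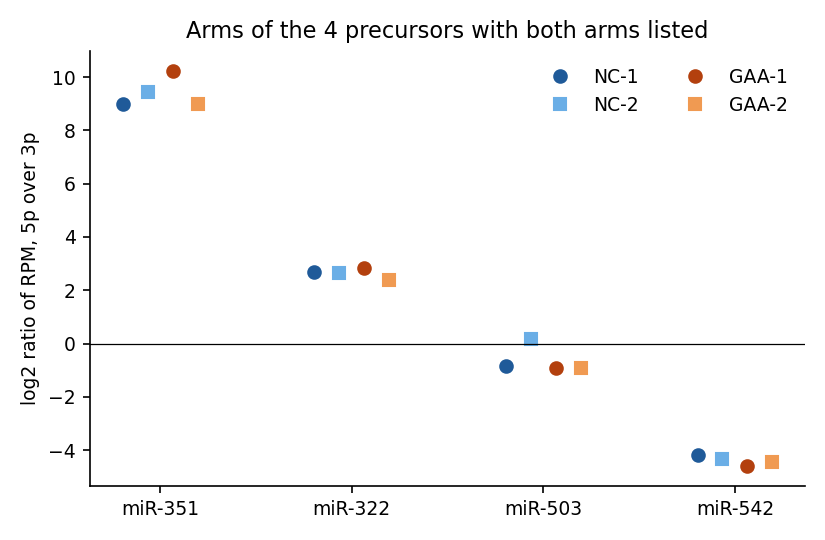
log2 ratio of the RPM of the 5p arm to that of the 3p arm for the 4 precursors with both arms among the members, 1 point per sample. Values above 0 mean more 5p reads: miR-351 and miR-322 lie above, miR-542 below, and miR-503 between -0.91 and 0.18.

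In RPM, none of the members passed the test between GAA and NC, with mean differences near 0 for miR-322-5p and at 0.50 and 0.55 for miR-450a-5p and miR-450b-5p. The contrast was fitted with limma to log2(RPM + 1) for the 869 miRNAs at once, and a miRNA was called at a Benjamini-Hochberg FDR under 0.01 with an absolute log2 difference above 1. This rule called 0 of the 10 members and 0.0% of all miRNAs on the RPM scale, with 1 member, miR-450a-5p, and 152 miRNAs in all at an unadjusted p under 0.05. The log2 difference was 0.06 (standard error 0.29, adjusted p = 0.921 with limma) for miR-322-5p, 0.28 (standard error 0.36, adjusted p = 0.635) for miR-351-5p, and 0.50 (standard error 0.17, adjusted p = 0.276) for miR-450a-5p. For miR-450b-5p, the product of the neighbouring precursor, it was 0.55 (standard error 0.33, adjusted p = 0.449). The other 6 members ranged from -0.07 for miR-503-5p and miR-351-3p to 0.43 for miR-503-3p. The adjusted p of miR-322-5p and miR-351-5p misses the threshold and does not show that they were equal in the groups. Without GAA-1 the difference was -0.27 for miR-322-5p and -0.12 for miR-351-5p.

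These values have to be read beside the rest of the profile, which was higher in GAA on the RPM scale. The median log2 difference was 0.19 over the 10 members and 0.49 over the 410 miRNAs with a mean of at least 1 RPM, a set that holds all 10. Both GAA samples were above both NC samples for 2 of the 10 members, miR-503-3p and miR-450a-5p, against 63.4% of the 410 miRNAs. Both GAA samples were below both NC samples for 0 of the 10, against 3.41%. miR-450a-5p and miR-450b-5p lay near the median of the 410 miRNAs, and the products of Mir322 below it by more than their standard errors. The same held for the rare miR-503-5p, miR-351-3p and miR-542-5p, so it did not single out Mir322.

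As a share of the miRNA reads, both products of Mir322 stood lower in both GAA samples than in both NC samples, although neither passed the test. miR-322-5p took 0.268% and 0.241% of the miRNA reads in NC and 0.226% and 0.159% in GAA, and miR-322-3p took 0.0420% and 0.0381% in NC and 0.0312% and 0.0302% in GAA. miR-351-5p took 0.339% and 0.374% in NC and 0.388% and 0.250% in GAA, so its highest and its lowest share were both in GAA samples. The share of miR-450a-5p, 0.0203% and 0.0171% in NC and 0.0195% and 0.0184% in GAA, overlapped between groups.

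With limma on these shares, scaled as reads per 1000000 miRNA reads with 1 added before the log2, the log2 difference was -0.42 (standard error 0.22, adjusted p = 0.707 with limma) for miR-322-5p and -0.38 (standard error 0.19, adjusted p = 0.660) for miR-322-3p. It was -0.50 (standard error 0.35) for miR-503-5p, -0.48 (standard error 0.43) for miR-351-3p and -0.43 (standard error 0.34) for miR-542-5p, all on 39 reads or fewer per sample. miR-450a-5p was at 0.03 (standard error 0.20) and miR-450b-5p at 0.08 (standard error 0.22). The rule called 0 of the 10 members, against 0.115% of all miRNAs, which is 1 miRNA, and with 0 members and 70 miRNAs at an unadjusted p under 0.05. Both GAA samples were below both NC samples for 5 of the 10 members, against 19.0% of the 410 miRNAs, and above for 0 of the 10, against 23.7%. The 5 were the arms of miR-322, miR-503-5p, miR-351-3p and miR-542-5p. The median over the members was -0.29, beside 0.05 over the 410 miRNAs. It rested in part on GAA-2: without that sample it was -0.06, with 5 of the 10 members higher in GAA, and without GAA-1 it was -0.42, with 0 of the 10 higher. Members of 1 cluster can share a transcript, so they are not independent of each other.

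**Figure D4:**
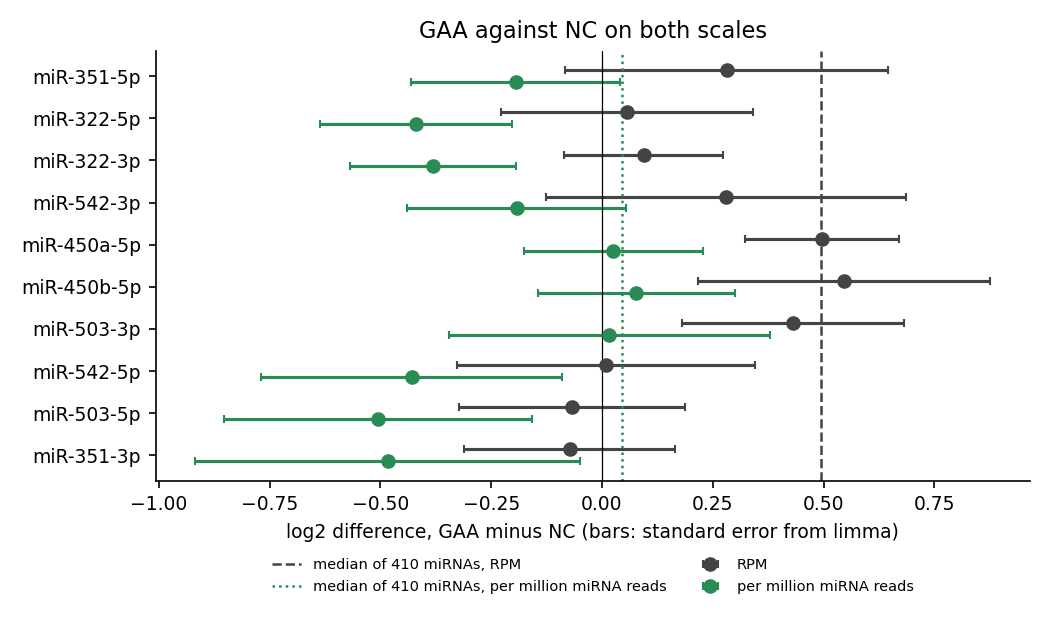
log2 difference of GAA minus NC for each cluster miRNA, in RPM (grey) and as reads per 1000000 miRNA reads (green), with its standard error from limma. The vertical lines give the median of the 410 miRNAs at 0.49 and 0.05, and 7 of the 10 members lie left of 0 on the green scale.

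Summed over the 10 members, the cluster stood at 2392 and 3172 RPM in NC and 4032 and 2509.5 RPM in GAA, with NC-1 the lowest, GAA-1 the highest and the groups overlapping. It took 0.712% (95% Wilson interval 0.6997% to 0.725%) of the miRNA reads of NC-1 and 0.727% (0.715% to 0.738%) of those of NC-2. For GAA-1 the share was 0.716% (0.707% to 0.725%), between the NC values, and for GAA-2 it was 0.498% (0.490% to 0.506%). These intervals cover counting error only. The lower mean in GAA, 0.607% ± 0.154 (SD, n = 2) against 0.720% ± 0.010 (SD, n = 2) in NC, therefore rested on GAA-2: without it the difference was -0.0035 percentage points.

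Within the cluster, miR-351-5p took 47.6% and 51.5% of the summed cluster RPM in NC and 54.1% and 50.2% in GAA. miR-322-5p took 37.6% and 33.1% in NC and 31.5% and 32.0% in GAA. Its GAA samples were both below both NC samples, but NC-2 stood closer to them than to NC-1. The ratio of miR-351-5p to miR-322-5p was 1.27 and 1.55 in NC and 1.72 and 1.57 in GAA. GAA-2 and NC-2 were nearly equal in this ratio, and an exact permutation test of 2 samples against 2 gave p = 0.333, the smallest it can give. miR-450b-5p took 1.92% and 2.41% of the cluster in NC and 2.50% and 2.99% in GAA, whereas miR-450a-5p overlapped between the groups.

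The seed sets miR-322-5p and miR-351-5p beside more abundant miRNAs encoded elsewhere. Among the 717 detected miRNAs matched to a RefSeq sequence, 7 carried the seed AGCAGCA of miR-322-5p. miR-16-5p led them with 72.6% and 72.55% of their summed RPM in NC and 77.2% and 79.4% in GAA, and miR-322-5p was next. miR-322-5p made up 16.4% and 16.2% of the reads with this seed in NC and 12.9% and 10.1% in GAA. Both GAA samples were below both NC samples, and the gap between the groups was wider than the range within either. This share compares miRNAs within a sample and does not depend on the total by which the reads were divided. The order was not particular to miR-322-5p. It also held for miR-15b-5p (5.73% and 6.24% in NC, 5.51% and 5.09% in GAA), miR-195a-5p, miR-497a-5p and the nearly absent miR-195b. miR-15a-5p overlapped between the groups, and miR-16-5p alone took a higher share in both GAA samples.

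The RPM of the leading relative was higher in both GAA samples than in both NC samples, while that of miR-322-5p overlapped. On this scale 63.4% of the 410 miRNAs were higher in both GAA samples. miR-16-5p, an inhibitor of cell cycle genes such as cyclin D1, stood at 3976 and 4699 RPM in NC and 7624 and 6335 RPM in GAA. miR-15a-5p, from the same transcript as a copy of miR-16, stood at 194 and 189 RPM in NC and 295 and 297 RPM in GAA. As a share of the miRNA reads, miR-16-5p was still higher in both GAA samples (1.18% and 1.08% in NC, 1.35% and 1.26% in GAA). By share that order held for 23.7% of the 410 miRNAs. The shares of miR-15a-5p and miR-15b-5p overlapped between the groups. Those of miR-195a-5p and miR-497a-5p were lower in both GAA samples, as for 19.0% of the 410 miRNAs. The log2 ratio of miR-322-5p to miR-16-5p was lower by 0.63 in GAA, from -2.15 ± 0.01 to -2.78 ± 0.28 (SD, n = 2, exact permutation p = 0.333, the smallest possible). The summed RPM of the seed was 5978 ± 705 in NC and 8928 ± 1345 in GAA (SD, n = 2).

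miR-351-5p showed the same order within the class it forms with miR-125a-5p and miR-125b-5p. It made up 18.4% and 22.4% of the reads with the seed CCCUGAG in NC and 15.2% and 13.6% in GAA. The part of miR-125b-5p was also lower in both GAA samples (36.0% and 35.6% in NC, 31.3% and 35.4% in GAA). Only that of miR-125a-5p was higher (45.5% and 42.0% in NC, 53.4% and 51.0% in GAA). miR-125a-5p stood at 2809 and 3065 RPM in NC and 7657 and 4738 RPM in GAA. miR-125b-5p stood at 2223 and 2597 RPM in NC and 4491 and 3293 RPM in GAA. For each, both GAA samples were above both NC samples in RPM, as for 63.4% of the 410 miRNAs. By share of the miRNA reads this held for miR-125a-5p (0.837% and 0.702% in NC, 1.36% and 0.940% in GAA). The share of miR-125b-5p overlapped (0.662% and 0.595% in NC, 0.798% and 0.653% in GAA). The log2 ratio of miR-351-5p to miR-125a-5p was lower by 0.76 in GAA (exact permutation p = 0.333, the smallest possible), and that to miR-125b-5p by 0.40 with the same p. Of the 128 miRNAs above 1 RPM that share a seed with another detected miRNA, 24.2% had a lower share of their seed class in both GAA samples and 25.0% a higher one, so the order alone, seen in both of these members, was common. The other 8 members were the only detected miRNAs with their seeds among those matched.

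**Figure D5:**
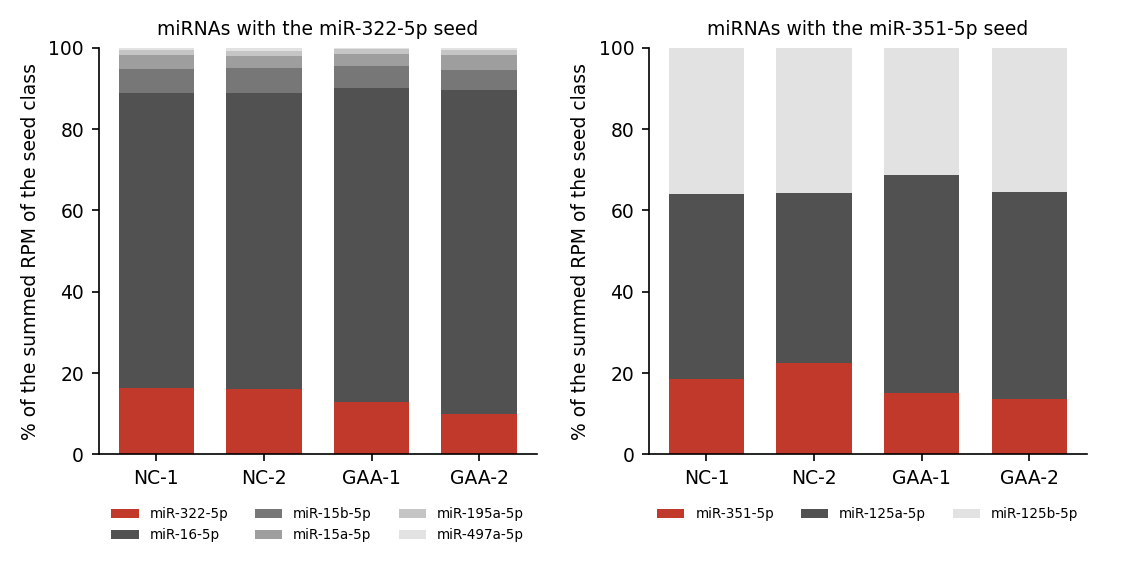
Percent of the summed RPM of each seed class taken by its members in each sample, with the cluster miRNA in red at the base. miR-322-5p takes 16.4% and 16.2% in NC and 12.9% and 10.1% in GAA, and miR-351-5p 18.4% and 22.4% in NC and 15.2% and 13.6% in GAA (the rarest miRNA with the miR-322-5p seed is not drawn).

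The remaining products of the locus were rare. miR-450b-3p, the passenger of miR-450b-5p, was read 10 and 11 times in NC and 20 and 18 times under GAA. Both GAA samples were above both NC samples on both scales, as for 63.4% of the 410 miRNAs in RPM and 23.7% by share. miR-450a-1-3p was read 0 and 1 times in NC against 5 and 6 times under GAA, and miR-450a-2-3p at most 2 times in any sample. The neighbouring X-linked cluster of miR-106a, 305429 bases away, was close to the limit of detection, with its 4 listed miRNAs summing to 0.634 to 2.16 RPM, whereas 3 reads correspond to 0.530 to 0.634 RPM. Of the 3 rare locus products, 4 neighbours and 7 seed relatives, 0 were called on either scale.

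Other miRNAs of muscle differentiation are given beside the cluster, without a test of the difference. Of 10 such miRNAs, 7 had a lower and 3 a higher mean log2 value in GAA on the RPM scale, with a median of -0.35, and 0 were called. As a share of the miRNA reads 8 were lower, with a median of -0.83 beside -0.29 for the cluster and 0.05 for the 410 miRNAs, and 1 was called, miR-208b-3p, at -3.30 (standard error 0.37, adjusted p = 0.00639 with limma). This miRNA, encoded within a myosin heavy chain gene, was read 92 and 84 times in NC against 17 and 8 times under GAA. With any 1 of the 4 samples left out, 0 miRNAs were called on this scale. The muscle list was assembled with earlier results on these samples known and is not independent evidence of its direction.

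The pattern of miR-322-5p over the 4 samples, as log2(RPM + 1) centred on its mean, was compared with the 409 other miRNAs above 1 RPM by the root-mean-square distance. The nearest outside the cluster were miR-196a-2-3p at 0.0327, miR-199a-5p at 0.0663 and miR-34b-5p at 0.120, against a median of 0.336 over all 409. miR-199a-5p, for instance, stood at 1457 and 1664 RPM in NC and 2085 and 1437 RPM in GAA. Of the cluster, miR-351-5p (0.160, rank 20) and miR-322-3p (0.161, rank 21) came nearest, and miR-503-3p (rank 213) and miR-351-3p (rank 232), both on few reads, were the farthest. Few reads did not always go with a large distance. The rare miR-542-5p (rank 34) and miR-503-5p (rank 58) were nearer than miR-542-3p (rank 119), miR-450a-5p (rank 129) and miR-450b-5p (rank 178).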

How the data were processed

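Small RNA of C2C12 myotubes was sequenced in 2 NC and 2 GAA samples. The authors removed adaptors, low-quality and repeated reads, mapped the clean reads to GRCm38 with miRDeep2, counted known miRNAs of miRBase and divided by the mappable reads. What they deposited is a log2 value, log2(RPM + 1). The file header writes this differently; base and added 1 follow from values that fall on multiples of a constant step. A miRNA without a row was set to 0. Reads were recovered from the step (95.4% to 96.0% of the values were whole within 0.02 of a read) and served for depth, displayed read numbers, Wilson intervals of the cluster share and a minimum of 10 reads in the check of replicate pairing, but in no count model, because the deposited unit is a log value.

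The GAA to NC contrast was fitted by lmFit and eBayes with trend (limma 3.58.1, R 4.3.3), with condition as the only term and no filter, over all 869 miRNAs. Arm ratios were fitted in the same way. The code of the fit was tried on simulated data, with changes larger than those of any member and replicate noise below the median of the members. That trial does not show which changes could be detected in these samples. The members, lists and tests were chosen with earlier results of these data known. The miRNAs named are the members, the products of the same locus, miRNAs with a shared seed, a muscle list, a neighbouring cluster, miRNAs of other cell types, and the 3 miRNAs nearest to miR-322-5p. Sequences came from RefSeq (717 of 869 names matched) and 1-based positions from GENCODE M21. Plots used matplotlib 3.10.9.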

Additional observations from a re-analysis of the deposited data

How the results depend on the processing

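The count of called members was 0 on both scales, and 0 of the tested arm pairs of the cluster were called, under every alternative run. Among all miRNAs, 1 was called instead of 0 with median-of-ratios factors, summed miRNA RPM, or that sum without the 5 most abundant miRNAs as divisor. On the share scale the count went from 1 to 0 with a pseudocount of 0.1 and with each sample left out, and to 6 with the replicate block. A pseudocount of 0.1 called 2 of all arm pairs. The direction of most members depended on the divisor, and the cause was not tested. The median over the 410 miRNAs above 1 RPM was 0.49 in RPM, -0.01 with median-of-ratios factors, 0.05 with summed miRNA RPM and 0.13 without the 5 most abundant. With median-of-ratios factors the median of the members was -0.34 (0.19 in RPM), the cluster sum -0.32 on the log2 scale (0.21 in RPM), and the values were -0.47 for miR-322-5p, -0.43 for miR-322-3p, -0.034 for miR-503-3p, -0.25 for miR-351-5p, -0.44 for miR-542-5p, -0.25 for miR-542-3p and -0.028 for miR-450a-5p. With summed miRNA RPM the median was -0.29, and the values were -0.42, -0.38, -0.19, -0.43 and -0.19 for miR-322-5p, miR-322-3p, miR-351-5p, miR-542-5p and miR-542-3p. Without the 5 most abundant miRNAs they were -0.33, -0.30, -0.11, -0.36 and -0.11, with a median of -0.20. miR-450b-5p was higher in GAA and miR-351-3p and miR-503-5p lower under all of these divisors.

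With 1 sample left out in turn, the log2 difference in RPM ranged from -0.27 to 0.39 for miR-322-5p, -0.022 to 0.21 for miR-322-3p, -0.28 to 0.14 for miR-503-5p, -0.12 to 0.68 for miR-351-5p, -0.23 to 0.084 for miR-351-3p, -0.32 to 0.34 for miR-542-5p, -0.16 to 0.72 for miR-542-3p, 0.22 to 0.65 for miR-503-3p, 0.38 to 0.62 for miR-450a-5p and 0.18 (without NC-1) to 0.91 for miR-450b-5p. Leaving out GAA-1 turned the sign of 6 of the 10 members, and the median of the members went from -0.04 (without NC-1) to 0.46 (without GAA-2). The share of miR-322-5p in its seed class differed by -6.24 to -3.44 percentage points and that of miR-351-5p by -7.99 to -4.06. The replicate numbers are shared by the groups, but the labels do not tie them to a culture or day, and the deviations of same-numbered samples correlated at -0.14 over 320 miRNAs. The replicate block called 0 miRNAs in RPM, and crossing the numbers, a choice made after seeing the data, called 0 in RPM and 6 on the share scale. Members under 10 RPM rest on 10 to 49 reads per sample, which limits what can be seen of their change.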
